A study of Monodelphis domestica and Mus musculus and Sus scrofa with 73 samples.

Results

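A set of 115 genes was chosen by its expression in the embryonic limbs of the bat *Carollia perspicillata*, out of 11752 genes that met the minimum length and level and 27026 genes in all. The choice used the CPM, the expected count of a gene divided by the sum of its library and multiplied by 1000000, averaged as log2(CPM + 0.5) over the libraries of each limb and stage. A gene was taken if this mean rose by at least 0.7 from stage 13 to stage 14 and again by at least 0.7 from stage 14 to stage 15, in the forelimb and in the hind limb, with a mean length of at least 1000 bases and a mean CPM of at least 1. These 4 steps therefore belong to the selection and are given as a description. Of the 116 genes that met them, 1 was among 7 identifiers left out by the rule.

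The libraries were made from whole limbs of wild embryos, collected in the field in Trinidad and staged by a published system for the species. Forelimbs and hind limbs were each represented by 3 libraries at stage 13, 3 at stage 14 and 2 at stage 15, 16 in all, with no treatment in any group. The study called stage 14 the early limb bud and stage 15 the paddle, and it used forelimbs of these stages to compare variation among mammalian species. The labels name no animals and do not say whether replicates came from separate embryos, so p-values measure the spread between these libraries only. The names given to the deposited tables of stage 13 forelimb replicate 1 and stage 13 hind limb replicate 3 share a number whose meaning is not given, so limbs of 1 embryo may stand in both groups at that stage.

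A mammalian limb begins as mesenchyme covered by ectoderm and grows out from the flank under signals from the ridge at its tip. As it widens into a paddle, mesenchymal cells condense into cartilage, while muscle precursors, nerves and vessels grow in from the trunk. Levels of many transcripts therefore change with the mix of cells as well as within cells, and in whole limbs fewer cells of a type and less RNA per cell cannot be told apart. The genes are assembled transcripts of the authors, known by an identifier that the files pair with no gene name, sequence or chromosome position, so function, cell type markers and location are not given here.

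Expected counts per library summed to between 13600741 and 61814821, and 3 counts correspond to between 0.0485 and 0.221 CPM. The share of genes shorter than 300 bases with a count stood apart in 5 libraries, at 23.1% in replicate 3 of the stage 13 forelimb, 24.2% to 25.7% in the 3 stage 13 hind limb libraries and 19.8% in replicate 3 of the stage 14 hind limb, against 6.36% to 13.6% in the others. At stage 13 this feature goes with the limb for all but 1 library. It goes with stage as well, being present in 4 of 6 libraries at stage 13, 1 of 6 at stage 14 and 0 of 4 at stage 15. Its part in the results was not tested. All genes described here were at least 1000 bases long on average. The labels give ES or LS in place of a stage number for replicates 1 and 2 of the stage 14 forelimb and both stage 15 forelimb libraries. All stage 13 forelimb libraries have a stage number, so the forelimb rise from stage 13 to 15 cannot be told apart from label wording.

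The 115 genes together took a growing share of each library. They made up 0.0671%, 0.0790% and 0.0708% of the expected counts in the stage 13 forelimb libraries, 0.245%, 0.206% and 0.203% at stage 14, and 0.566% and 0.552% at stage 15. In the hind limb the shares were 0.0648%, 0.0610% and 0.0517%, then 0.140%, 0.117% and 0.156%, then 0.429% and 0.464%. The groups of neighbouring stages did not overlap in either limb, which is a description, since the genes were chosen to rise at these steps. At every stage the lowest forelimb library lay above the highest hind limb library.

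At stage 13 these genes were among the weakly expressed ones. By FPKM, which scales a count by gene length and library, their median percentile among the 11752 genes was 6.02 at stage 13, 23.7 at stage 14 and 45.3 at stage 15. The selection asked for a rise, so this climb is a description too. At stage 13, 31 of the 115 had a mean CPM under 1 in both limbs and 14 had at least 10 in both. At stage 15, 0 were under 1 in both limbs and 81 had at least 10 in both. Of the 115, 13 had 0 counts in at least 1 of the stage 13 libraries and 0 of them in all 6, which leaves the start of the rise poorly measured for those genes.

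**Figure D1:**
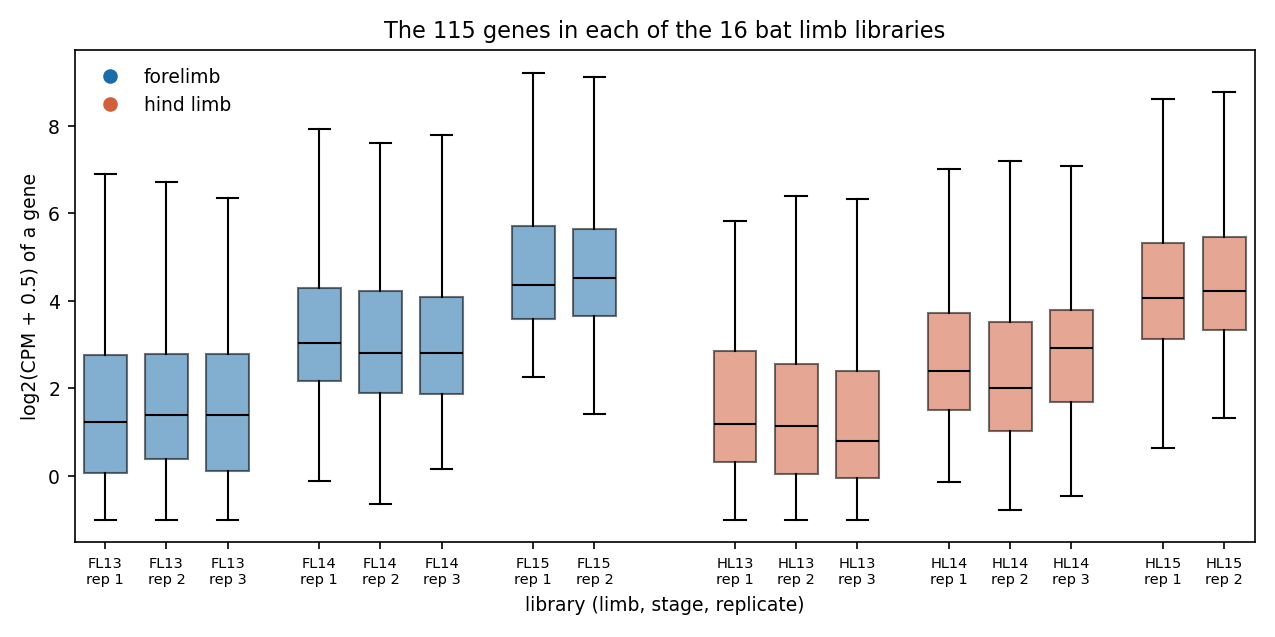
Each box shows log2(CPM + 0.5) of the 115 genes in 1 of the 16 libraries, with the median as a line, the quartiles as the box and the lowest and highest gene as whiskers. Medians in CPM run from 1.23 to 2.14 at stage 13, 3.49 to 7.71 at stage 14 and 16.3 to 22.5 at stage 15.

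On the log2(CPM + 0.5) scale the forelimb steps had similar medians, and in the hind limb the second had the higher median. The median step of the 115 genes on the log2(CPM + 0.5) scale was 1.40 (range 0.70 to 4.87) from stage 13 to 14 and 1.29 (0.70 to 4.60) from stage 14 to 15 in the forelimb. In the hind limb it was 1.09 (0.71 to 3.80) and then 1.49 (0.72 to 4.26). On this scale the first step was the larger for 57 of the 115 genes in the forelimb and for 36 in the hind limb. For 80 genes the first step was larger in the forelimb than in the hind limb, and for 70 the second step was larger in the hind limb. Over all 11752 genes the 4 median steps were 0.01, 0.02, -0.03 and 0.04. The added 0.5 CPM damps the first step most, since levels were lowest at stage 13. In the edgeR fits described below, the members' median steps were 1.72 and then 1.28 in the forelimb. They were 1.48 (113 genes) and then 1.57 in the hind limb. The difference between limbs in a step was not tested, since the selection used these values. With 1 label wording throughout, the forelimb medians on the log2(CPM + 0.5) scale were 1.27 for the first step and 1.26 for the second. Only 1 stage 14 library entered the former.

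Over both steps the median rise was 2.93 in the forelimb, a 7.62-fold change on this scale, and 2.64 in the hind limb, a 6.21-fold change. Rises of at least 4-fold in both limbs were seen for 84 genes, of at least 8-fold for 38, of at least 16-fold for 15 and of at least 32-fold for 4. Across the 115 genes the rises in the 2 limbs had a Pearson coefficient of 0.765 and a Spearman coefficient of 0.727, as a description, since genes are not independent replicates and libraries of a limb are shared by all genes. The rise was larger in the forelimb for 61 genes.

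**Figure D2:**
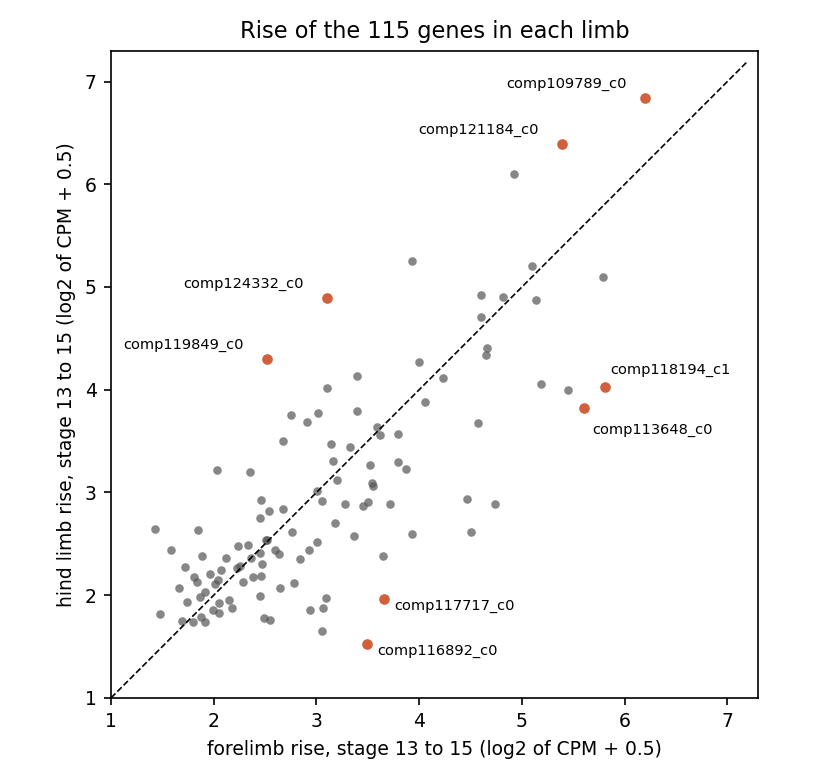
Each point is 1 of the 115 genes, placed by its rise from stage 13 to stage 15 on the log2(CPM + 0.5) scale in the forelimb (x axis) and the hind limb (y axis), with the dashed line marking equal rises. Rises run from 1.43 to 6.20 in the forelimb and from 1.52 to 6.84 in the hind limb, and some genes named in the text are labelled in orange.

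Libraries of neighbouring stages did not overlap for most of these genes. Every stage 14 forelimb library lay above every stage 13 forelimb library for 93.9% of the 115 genes (16.4% of the 11752), and every stage 15 forelimb library above every stage 14 one for 95.7% (25.9%). Hind limb libraries did so for 74.8% (14.9%) and 95.7% (23.4%). The 4 steps were all free of overlap for 78 genes (2.61% of the 11752, or 307 genes). By edgeR's quasi-likelihood test with an adjusted p under 0.05, the number called higher at the later stage was 69 of 115 for the first forelimb step (2.2% of all genes tested) and 98 of 115 for the second (8.46%). It was 57 of 113 for the first hind limb step (4.22%) and 75 of 115 for the second (3.74%). The selection used these contrasts, so the counts describe how far single genes stood above the spread between libraries and nothing more.

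The number called depended on single libraries at each step. For the first forelimb step it was 16 to 38 without any 1 library other than replicate 3 of stage 13 (0.423% to 1.28% of all genes tested), and for the second it was 59 and 51 without replicate 1 or 2 of stage 15 (4.19% and 3.13% of all). For the first hind limb step it was 33 and 8 without replicate 2 or 3 of stage 13 (1.6% and 0.767%), and 17 and 26 without replicate 1 or 2 of stage 14 (1.01% and 1.6%). For the second it was 18 without either stage 15 library (0.487% and 0.503%). In each of these fits the share called higher over all genes was lower than with all libraries too. The RSEM intervals of FPKM, which cover read assignment and not replicates, lay higher in each stage 15 library than in each stage 13 library for 97.4% of the 115 genes in the forelimb (17.7% of the 11752) and 93.9% in the hind limb (18.9%), again for genes chosen to rise between these stages.

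The most abundant gene of the set was comp111815_c0, a 1-isoform gene of 1762 bases with a mean of 128 FPKM over the 16 libraries. Its CPM was 119, 105.5 and 80.9 in the forelimb libraries of stage 13, 209.6, 194 and 183 at stage 14 and 491 and 315 at stage 15. In the hind limb it was 56.1, 84.1 and 79.8, then 117, 146 and 134, then 309 and 362. Its libraries did not overlap between neighbouring stages in either limb. The 4 steps were 0.95, 1.01, 0.86 and 1.34 on the log2 scale, and mean FPKM went from 69.8 to 276 in the forelimb and from 50.3 to 229.7 in the hind limb.

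The next by FPKM, comp118622_c0 (82.6 FPKM), was highest in the forelimb at each stage by its mean. Its CPM was 21.5, 24.6 and 24.0 in the forelimb libraries of stage 13, 242, 159 and 112 at stage 14 and 596 and 558 at stage 15. Hind limb CPM was 7.80, 18.7 and 15.5, then 44.4, 23.6 and 34.3, then 389 and 437. At stage 14 the lowest forelimb library was well above the highest hind limb library. The forelimb step of 2.78 came first and was followed by 1.82, whereas the hind limb rose by 1.30 and then by 3.62. The difference between limbs was 2.30 on the log2 scale at stage 14 (SE 0.319, adjusted p = 0.0414), and 0.47 at stage 15 (SE 0.128, adjusted p = 0.152).

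The largest rises, averaged over the limbs, belonged to comp109789_c0 and comp121184_c0, both of 1 isoform. In comp109789_c0, CPM was 0.305, 1.16 and 0.221 in the forelimb libraries of stage 13, 5.67, 4.89 and 6.47 at stage 14 and 68.9 and 75.3 at stage 15. The hind limb libraries held 0, 0.176 and 0.0425, then 6.87, 2.38 and 1.45, then 58.5 and 71.2. comp121184_c0 had a mean of 0.279 ± 0.238, 5.41 ± 2.57 and 31.6 ± 8.67 CPM at the 3 stages in the forelimb (SD, n = 3, 3 and 2), and 0.0401 ± 0.0347, 2.17 ± 1.56 and 44.7 ± 0.586 in the hind limb. Both genes were at or near the limit of detection in the hind limb at stage 13 and far above it in every library at stage 15. Their rises were 6.20 and 5.39 in the forelimb and 6.84 and 6.39 in the hind limb, on a scale whose pseudocount of 0.5 understates the change of genes this low. A further gene, comp105523_c0, named after its values were seen, was the 1 member with 0 counts in all 3 stage 13 hind limb libraries. Its CPM there went to 2.69, 0.925 and 1.34 at stage 14 and 13.3 and 20.7 at stage 15.

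The most even course on the log2(CPM + 0.5) scale was that of comp108797_c0, whose 4 steps were 1.19, 1.09, 1.04 and 1.08. Its CPM was 0.881, 0.654 and 0.588 in the forelimb libraries of stage 13, 2.43, 2.15 and 2.18 at stage 14 and 5.89 and 4.86 at stage 15. Hind limb values were 0.675, 0.647 and 0.468, then 1.82, 1.42 and 2.07, then 3.99 and 4.56. On that scale the level rose by about as much at each step in both limbs, with no overlap between stages. Its stage 13 levels were close to the added 0.5 CPM. The steps fitted by edgeR were less even, at 1.63 and 1.22 in the forelimb and 1.62 and 1.25 in the hind limb. The gene with the most isoforms, comp124417_c0 with 24, had steps of 1.40, 1.14, 1.50 and 1.32 and mean levels from 3.05 ± 0.505 to 20.1 ± 3.29 CPM in the forelimb and from 2.00 ± 0.0983 to 17.2 ± 0.755 in the hind limb. Neither passed the edgeR test between the limbs at any stage, with adjusted p-values from 0.768 to 0.911.

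Near the limit of 0.7 the choice turned on little. Just inside it were comp94978_c0, with steps of 0.70, 2.36, 0.73 and 0.92, and comp124567_c0, with 0.88, 0.70, 1.01 and 1.42. Just outside were comp127865_c0, with steps of 1.25, 0.70, 0.83 and 1.39, and comp126683_c0, with 2.05, 0.70, 1.83 and 1.22, whose smallest steps were 0.6997 and 0.6989. comp94978_c0 was low throughout, at 1.82, 0.178 and 0.223 CPM in the stage 14 hind limb libraries, where replicate 1 lay far above the others. In contrast, comp127865_c0 reached a mean of 618 CPM in the stage 15 forelimb, more than any of the 115 genes.

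Taken limb by limb, the steps held for more genes. Of the 11752 genes, 289 met both steps in the forelimb (2.46%) and 206 in the hind limb (1.75%), and 116 met them in both limbs, which are the 115 and the gene left out. The 289 had a median hind limb rise of 2.11 and 288 of them were higher at stage 15 than at stage 13 there, beside a median of 0.02 and 50.9% over all genes. The 206 had a median forelimb rise of 2.45 and 205 of them rose. The selection used both limbs, and its minimum level and length are means over all 16 libraries, so these values describe the set and its surroundings and support nothing further.

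How the limbs differed at 1 stage was not asked for by the selection. The differences come from the same libraries and group means as the selected steps, so they are not independent of it. The 115 genes were mostly higher in the forelimb: 85 of them by group mean at stage 13 (73.9%, against 46.4% of the 11752 genes), 96 at stage 14 (83.5%, against 52.4%) and 93 at stage 15 (80.9%, against 52.2%). The median difference of forelimb minus hind limb on the log2(CPM + 0.5) scale was 0.17, 0.42 and 0.30, against -0.02, 0.01 and 0.01 over the 11752 genes. Every forelimb library lay above every hind limb library for 16 of the 115 genes at stage 13 (5.13% of the 11752), for 37 at stage 14 (11.3%) and for 64 at stage 15 (19.7%). The reverse held for 3, 2 and 8 of the 115, and for 607, 556 and 1890 of the 11752. Both directions occurred at different stages for 2 of the 115 (3.54% of the 11752). Deviations of libraries from their group mean were more alike among the members than among other genes. The median correlation between pairs was 0.157 for members, against 0.022 for a subset of the other eligible genes. Members that move together in a library are not separate observations, so these counts are a description.

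The lean towards the forelimb did not rest on 1 library or scaling among those tried, with 71 to 92 genes higher in the forelimb at stage 13 when each library was left out in turn, 86 to 102 at stage 14 and 80 to 94 at stage 15. With TMM library sizes the counts were 90, 94 and 88. Replicate 2 of the stage 14 hind limb, the deepest library, was low for these genes: 21 of the 115 lay above their group mean in it, and without it 86 were higher in the forelimb. The 1 stage 14 forelimb library labelled with a stage number gave 91. At stage 15 limb and label wording cannot be told apart.

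**Figure D3:**
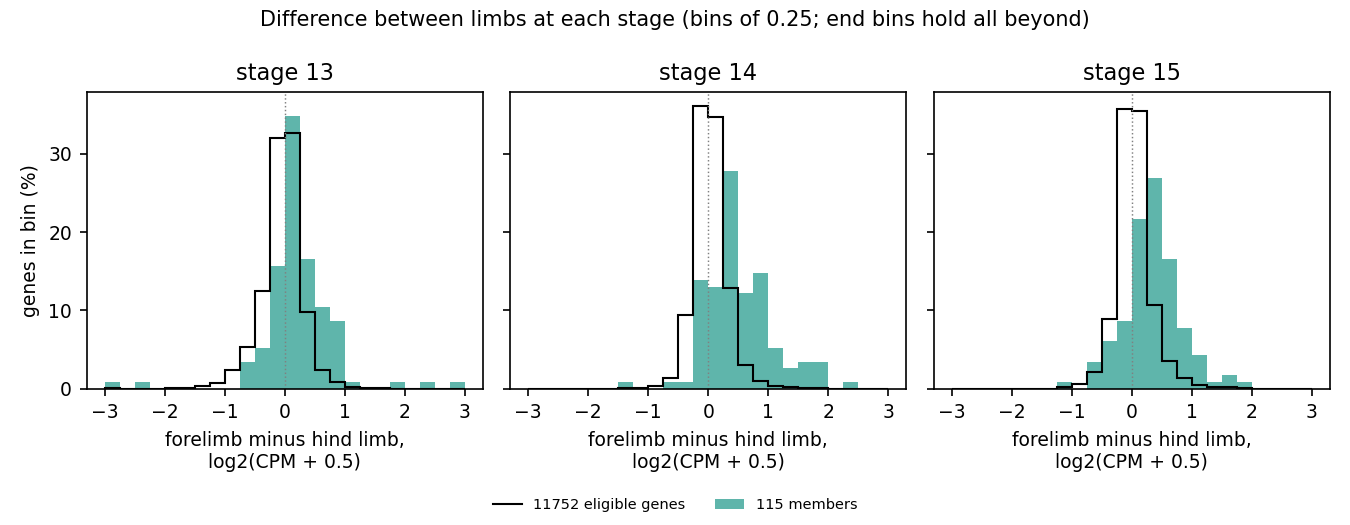
Bars show the percentage of the 115 genes, and the black outline that of the 11752 eligible genes, in bins of 0.25 of the forelimb minus hind limb difference in mean log2(CPM + 0.5), with 1 panel per stage. The bars lie to the right of the outline, with medians of 0.17, 0.42 and 0.30 at stages 13, 14 and 15.

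Few single genes passed the test between limbs. By edgeR's quasi-likelihood test, 1 of the 96 members with enough counts was called at stage 13, higher in the forelimb (0.0272% of all 14729 genes tested were called in that direction and 0.0475% in the other). At stage 14, 3 of the 115 were called, all higher in the forelimb (0.115% and 0.0405% of all). At stage 15, 9 were called higher in the forelimb (7.83% of the 115, against 0.681% of all 14826) and 1 higher in the hind limb (0.870%, against 0.142%). The unadjusted p was under 0.05 for 14 of 96, 39 of 115 and 46 of 115 genes, or 14.6%, 33.9% and 40%, against 6.08%, 7.29% and 7.999% of all genes tested. Since members tend to deviate together, these shares are a description too. The fitted median difference was 0.29, 0.44 and 0.31, against -0.0028, -0.0356 and 0.00792 over all genes.

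These calls depend on which libraries estimate the spread. With all 16 libraries in one fit, 4, 2 and 0 of the 115 were called at the 3 stages and 7 genes in all at stage 15, so the stage 15 calls described next were lost there. Leaving out replicate 3 of the stage 13 forelimb raised the calls over all genes at stage 13 from 11 to 1190 and those among the members from 1 to 5, while 0 members were called there without replicate 2 of the forelimb or any 1 hind limb library (5 to 7 genes over all). Without that replicate 3, limb cannot be told apart from the share of short genes with a count. This share was 11.7% and 8.90% in the forelimb libraries left and 24.2% to 25.7% in the hind limb. Of the libraries that share a number in their names, leaving out replicate 1 of the forelimb gave 1 member and leaving out replicate 3 of the hind limb gave 0. At stage 14, 0 were called without replicate 1 or 2 of the forelimb or replicate 1 of the hind limb (8 to 10 genes over all, against 23 with all libraries), 1 without replicate 2 of the hind limb (16 over all) and 5 without replicate 3 (43). At stage 15, 19 were called without replicate 1 of the forelimb and 6 without replicate 2, while the calls over all genes went from 122 to 448 and 107.

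The lowest adjusted p belonged to comp117717_c0, which parted between limbs at stage 15. Its CPM was 1.63, 1.82 and 2.28 in the forelimb libraries of stage 13, 4.46, 4.20 and 4.54 at stage 14 and 27.8 and 31.5 at stage 15. Across hind limb libraries it was 4.61, 1.24 and 0.468, then 2.44, 1.67 and 5.97, then 8.44 and 6.58. The limbs overlapped at stages 13 and 14 and stood clearly apart at stage 15. The difference there was 1.96 (SE 0.231, adjusted p = 0.00136).

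The limbs also overlapped up to stage 14 in comp118194_c1. Its CPM was 0.441, 1.20 and 0.662 in the forelimb libraries of stage 13, 4.00, 2.88 and 2.05 at stage 14 and 56.6 and 82.6 at stage 15. Hind limb libraries had 7.81, 0.706 and 0.170, then 5.53, 1.49 and 1.95, then 29.3 and 31.4. Replicate 1 of the stage 13 hind limb stood far above the others of its group. The stage 15 difference was 1.19 (SE 0.195, adjusted p = 0.0119).

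comp128095_c0, a gene of 5247 bases, parted earlier. Its CPM was 2.91, 1.49 and 1.84 in the forelimb libraries of stage 13, 9.88, 8.13 and 15.9 at stage 14 and 66.6 and 66.8 at stage 15. The hind limb stood at 2.03, 1.53 and 5.48, then 7.67, 3.67 and 4.38, then 28.4 and 18.2. All stage 14 forelimb libraries were above all stage 14 hind limb libraries, but the difference did not pass the test (1.07, SE 0.338, adjusted p = 0.488). At stage 15 the difference was 1.50 (SE 0.210, adjusted p = 0.00509).

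comp119849_c0 was called at 2 stages and kept its lead in the forelimb throughout. Its CPM was 29.9, 36.1 and 41.8 in the forelimb libraries of stage 13, 134, 112 and 106 at stage 14 and 193 and 221 at stage 15. For the hind limb the values were 1.04, 18.0 and 9.10, then 41.0, 33.0 and 50.9, then 137 and 119. The limbs did not overlap at any stage. The difference was 1.98 at stage 13 (SE 0.739, adjusted p = 0.763), 1.47 at stage 14 (SE 0.170, adjusted p = 0.0114) and 0.69 at stage 15 (SE 0.138, adjusted p = 0.0359). The stage 14 call was lost without replicate 1 or 2 of the stage 14 forelimb or replicate 1 of the hind limb (adjusted p 0.0601 to 0.0845), and the stage 15 call without replicate 2 of either limb (0.115 and 0.315).

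comp124332_c0, which had the largest excess of hind limb over forelimb rise, was the 1 member called at stage 13. Its CPM was 6.11, 10.5 and 10.6 in the forelimb libraries of stage 13, 34.2, 31.2 and 30.8 at stage 14 and 70.1 and 89.4 at stage 15. In hind limb libraries CPM was 0.736, 1.12 and 0.808, then 9.31, 5.22 and 21.1, then 45.9 and 35.5. At stage 13 the lowest forelimb library was far above the highest hind limb library. The difference was 3.37 (SE 0.359, adjusted p = 0.0185) at stage 13, 1.45 (SE 0.412, adjusted p = 0.434) at stage 14 and 0.96 (SE 0.181, adjusted p = 0.0256) at stage 15. Its rise was 4.89 in the hind limb and 3.10 in the forelimb.

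comp113648_c0 was the 1 member called higher in the hind limb. Its CPM was 0.203, 1.02 and 0.441 in the forelimb libraries of stage 13, 43.1, 25.3 and 21.9 at stage 14 and 48.9 and 47.8 at stage 15. The hind limb had 7.59, 7.59 and 5.82, then 8.07, 9.83 and 33.2, then 98.0 and 113. The hind limb was above the forelimb at stages 13 and 15 without overlap, and the limbs overlapped at stage 14, where replicate 3 of the hind limb, a library with many short genes, was the highest of its group. The difference was -3.59 at stage 13 (SE 0.558, adjusted p = 0.105), 0.83 at stage 14 (SE 0.498, adjusted p = 0.762) and -1.13 at stage 15 (SE 0.146, adjusted p = 0.0024). Its first forelimb step of 4.87 was the largest of that step among the 115, followed by 0.74, while the hind limb rose by 0.95 and then by 2.87.

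**Figure D4:**
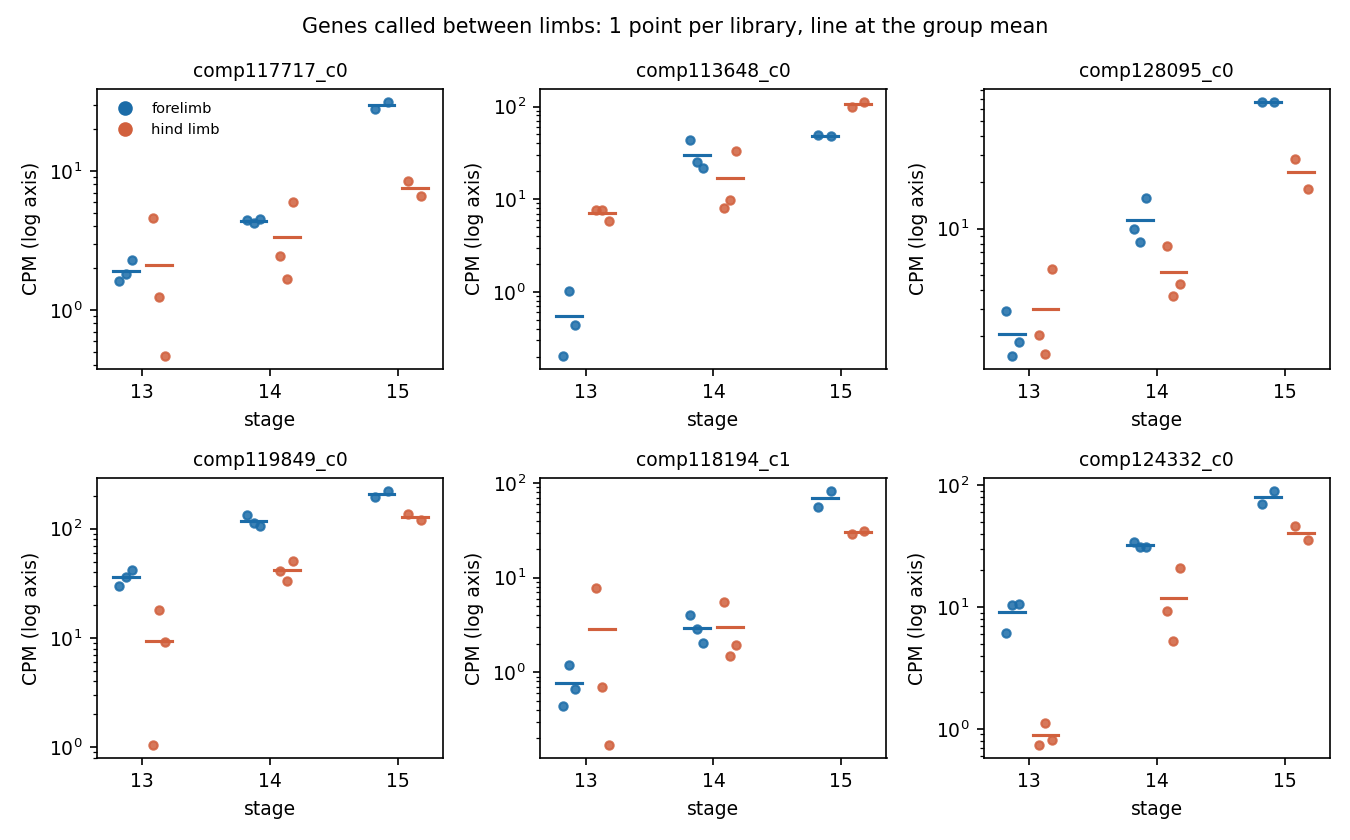
Points are single libraries and lines group means of CPM on a log axis, by stage, for genes called between limbs, with the forelimb in blue and the hind limb in orange. At stage 15 the forelimb lies above the hind limb without overlap in every panel except that of comp113648_c0, where it lies below.

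The remaining called genes are named here after their values were seen. At stage 14, comp116943_c0 had 8.74, 5.39 and 5.28 CPM in the forelimb and 1.82, 1.15 and 1.23 in the hind limb, a difference of 2.17 (SE 0.324, adjusted p = 0.0414). Its stage 15 libraries overlapped, at 19.9 and 13.3 and 11.7 and 22.3. At stage 15, the differences were 1.31 for comp112983_c0 (adjusted p = 0.0244), 0.96 for comp120370_c0 (0.0136), 1.16 for comp123971_c0 (0.0403) and 0.69 for comp126801_c0 (0.0244). Of these, comp126801_c0 was the most abundant, at 404 and 385 CPM in the stage 15 forelimb and 224 and 259.6 in the hind limb, and the limbs stood apart without overlap in each of these genes.

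The largest excess of forelimb over hind limb rise was that of comp116892_c0, which started low in the forelimb. Its CPM was 0.271, 0.327 and 0.147 in the forelimb libraries of stage 13, 2.57, 2.01 and 1.16 at stage 14 and 5.68 and 10.9 at stage 15. Hind limb levels were 2.33, 4.53 and 2.98, then 6.87, 3.14 and 8.53, then 6.33 and 15.8. The limbs did not overlap at stages 13 and 14 and did at stage 15. The difference was -3.58 at stage 13 (SE 0.507, adjusted p = 0.0734), -1.70 at stage 14 (SE 0.419, adjusted p = 0.307) and -0.41 at stage 15 (SE 0.467, adjusted p = 0.927), of which 0 passed the threshold.

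A change in the mix of isoforms was read from the weighted length of a gene, which RSEM gives as the mean length of its isoforms weighted by their estimated abundance. Of the 66 members with at least 2 isoforms, 40 had at least 10 counts in each of the 10 libraries of stages 13 and 15 and were tested by limma with limb as a term. A change was called for 3 of the 40, 1 towards longer and 2 towards shorter, while 8.79% of the 7451 genes tested were called. The members' share was thus near the background.

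In comp123118_c0, with 5 isoforms, the weighted length fell from 1942, 1724 and 1809 bases in the stage 13 forelimb libraries to 1518, 1220.4 and 1370.0 at stage 14 and 1096 and 1027 at stage 15. In the hind limb it went from 2092, 2134 and 1979.7 to 1462, 1572 and 1829 and 1289 and 1134. Stages 13 and 15 did not overlap in either limb. The change from stage 13 to 15 was -0.78 on the log2 scale (SE 0.0487, limma adjusted p = 0.000751) and stayed past the threshold in every alternative run. FPKM, which divides by this length, rose from a mean of 31.7 to 179.6 in the forelimb, a steeper course than that of CPM, which went from 48.1 to 133.

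In comp127349_c0 the isoforms in use were longer on average at stage 15 than at stage 13. Its weighted length was 1610.5, 1031 and 1657 bases in the stage 13 forelimb libraries, 2041, 1556 and 1967.5 at stage 14 and 3094 and 2493 at stage 15. In the hind limb it was 1500.1, 1034 and 1795, then 1213, 1138.5 and 1830, then 2616 and 2541, so stages 13 and 14 overlapped there. The stage 13 lengths rest on 27 to 69 counts per library. Stages 13 and 15 did not overlap, and the change between them was 0.93 (SE 0.194, limma adjusted p = 0.0345). By FPKM, which divides by this length, the second step of comp127349_c0 was smaller than by CPM. Its FPKM was 4.37, 4.03 and 4.29 at stage 14 and 5.64 and 5.72 at stage 15 in the forelimb. In the hind limb FPKM was 6.15, 4.32 and 5.08, then 5.02 and 8.21, so these stages overlapped there. In comp119876_c0, with 20 isoforms, the weighted length went from 1026, 1022 and 1179 to 887 and 934 bases in the forelimb and from 1016, 1170.3 and 1139 to 916 and 957 in the hind limb, a change of -0.24 (SE 0.0554, adjusted p = 0.0429). The call of comp127349_c0 was lost without any 1 stage 15 library or without replicate 1 or 2 of the stage 13 hind limb, with adjusted p-values up to 0.103. That of comp119876_c0 was lost without any 1 stage 15 library, replicate 2 of the stage 13 forelimb or replicate 2 or 3 of the stage 13 hind limb, with values up to 0.118.

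**Figure D5:**
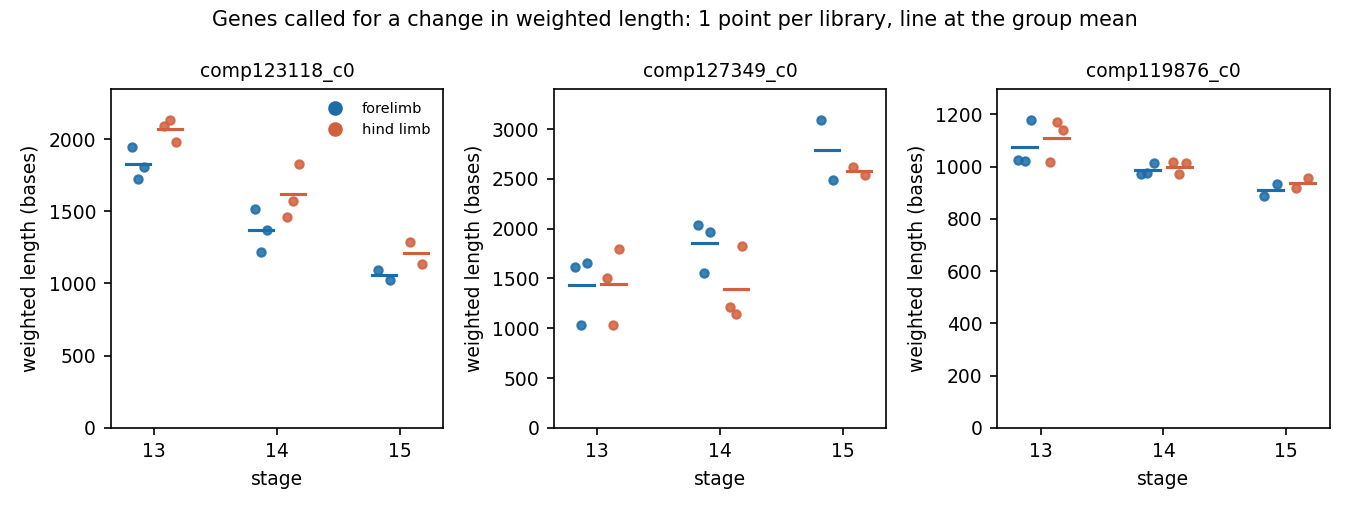
Points are single libraries and lines group means of the weighted gene length in bases, by stage, for the 3 genes called between stages 13 and 15, with the forelimb in blue and the hind limb in orange. From stage 13 to 15 the length of comp123118_c0 and comp119876_c0 falls and that of comp127349_c0 rises in both limbs, with no overlap of these stages.

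In their build the 115 genes resembled the rest in some features. Their median length was 2118 bases against 2534 over the 11752 genes, and both had a median of 2 isoforms. A single isoform was listed for 49 of the 115 (42.6%, against 33.6%). The assembly component of 5 members held another gene (4.35%, against 6.91%), and 0 pairs of members came from 1 component, so the set does not count fragments of a component more than once. Genes split between components cannot be recognised without their sequences. The pooled SD of log2(CPM + 0.5) between libraries of a group had a median of 0.405 for the 115 genes and 0.246 for the 11752. The members were also lower in level at stage 13. Their median CPM there was 2.08 in the forelimb and 1.71 in the hind limb, against 30.4 and 30.9 over the 11752. The SD was not compared among genes of equal level.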

How the data were processed

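RNASeq libraries of 16 bat limb samples were analysed, and 57 samples of other species were not used. After trimming, the authors built a bat transcriptome from all bat reads with Trinity, filtered it for matches to SwissProt proteins and quantified each library against it with RSEM, which maps with bowtie. Versions are not given in the sources used here. The deposited expected counts are RSEM's estimated counts of reads per gene, not normalized, and estimates can be shared among similar sequences. The deposited FPKM values were scaled by the authors' RSEM run for length and library size, and the length column of the deposited files (bases) is weighted by isoform abundance. The deposited TPM values were not used. Limb, stage and replicate came from the labels.

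CPM was computed from expected counts over the library sum, and the 115 genes were found as log2(CPM + 0.5) means rising by at least 0.7 at each of 4 steps. The genes, the rule and the tests were chosen with earlier results of these data known. Differences between limbs and stages were tested with edgeR 4.0.16 in R 4.3.3 (quasi-likelihood, robust, TMM) on expected counts rounded to whole numbers, for genes with at least 10 counts in as many libraries as the smaller group. Only the 2 groups compared entered a fit, and p-values were two-sided and adjusted by Benjamini-Hochberg over all genes tested, with a threshold of 0.05. Weighted length was tested with limma 3.58.1 on log2 bases in the 10 libraries of stages 13 and 15, with limb as a term, for genes with at least 2 isoforms and 10 counts in each library. The scripts were tested on simulated data.

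Genes were named by rule among the 115: the most abundant by FPKM, the largest and most even rises, those nearest the limit of 0.7, up to 5 called between limbs, up to 3 called for length, the largest rise of 1 limb over the other, and the most isoforms. Alternatives were DESeq2 1.42.0, RLE factors, other filters, all 16 libraries in one fit, the replicate number as a block, other scalings, pseudocounts, step sizes and minimums, and each library left out in turn. The counts of genes higher in the forelimb under other scalings, and the values by label wording, were added after seeing the data. Figures and tables used Python 3.11.15, pandas 2.3.3 and matplotlib 3.10.9.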

Additional observations from a re-analysis of the deposited data

Results flagged for a closer look

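Of the 115 genes, 2 had limbs that stood apart without overlap in opposite directions at 2 stages, as did 3.54% of the 11752 genes. The difference between the stages was not tested. In comp125524_c0, CPM at stage 13 was 8.0004, 4.76 and 6.91 in the forelimb and 2.15, 3.41 and 3.53 in the hind limb, a difference of 1.00 in mean log2(CPM + 0.5). At stage 15 it was 111 and 99.3 in the forelimb and 128 and 135 in the hind limb, a difference of -0.32. In comp66016_c0, CPM at stage 13 was 1.25, 1.16 and 2.06 in the forelimb and 0.737, 0.882 and 1.15 in the hind limb, a difference of 0.47. At stage 15 it was 13.5 and 11.8 in the forelimb and 20.0 and 17.2 in the hind limb, a difference of -0.53. Neither gene passed the edgeR test between limbs at any stage (adjusted p from 0.503 to 0.834).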

How the results depend on the processing

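The number of genes meeting the rule was 245 with a step of 0.5 and 41 with a step of 1, in place of 115, and 102 to 135 without each library in turn. With FPKM in place of CPM it was 90, of which 84 were among the 115, and with TMM library sizes 117. The median forelimb rise of 2.93 became 2.57 with FPKM and with a pseudocount of 1, and was 2.77 to 3.01 without each library in turn, while the hind limb rise was 2.54 to 2.85. Of the genes meeting the steps in 1 limb, the share meeting them in the other (56.3% and 40.1%, a description) was 53.6% to 58.7% in the forelimb and 35.5% to 47.2% in the hind limb without each library in turn.

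At stage 13, 1 member was called between limbs (0.0747% of all genes tested). With at least 50 counts required in every library the count was 0 of 31 members tested (0.0184% of all). It was 4 with DESeq2 (0.862% of all), 4 with all 16 libraries in one fit (0.321%) and 3 with no filter (0.139%). At stage 14 the count was 18 with DESeq2 (1.19% of all), in place of 3 (0.155%). At stage 15, in place of 10 (0.823% of all), it was 0 with all 16 libraries in one fit (0.0424%), 18 with no filter (1.71%) and 16 with the replicate block (1.59%). Without each library in turn it was 0 to 5, 0 to 5 and 6 to 19 at the 3 stages. Only 6 differences between limbs, those of the genes named by rule as called between limbs, were followed one by one through the alternatives. All 6 lost their call with all 16 libraries in one fit and kept their direction, with values from 0.67 to 1.95 and -1.15. The other called differences named above were not followed in this way. Members called for weighted length numbered 1 to 5 without each library in turn (1.64% to 12.8% of all genes tested).

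With at least 50 counts, fewer members were tested for a rise to the later stage. Counts called higher were then 23 of 41 for the first forelimb step (1.74% of all genes tested), in place of 69 of 115 (2.2%). For the first hind limb step they were 22 of 34 (5.36%), in place of 57 of 113 (4.22%). With all 16 libraries in one fit, counts for the second forelimb step were 65 of 115 (4.63%), in place of 98 of 115 (8.46%). Without each library in turn they were 16 to 75 and 51 to 92 in the forelimb, and 8 to 60 and 18 to 84 in the hind limb. The cause of these changes was not tested, beyond the smaller number of genes or libraries that enter some fits. Of the 103 alternative values for single named genes, 0 reversed direction, and counts cannot.

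Groups share replicate numbers, but same-numbered libraries did not deviate together throughout (correlations of deviations of 0.149, -0.219 and -0.0599 between the limbs at stage 13, -0.0801, 0.597 and 0.0634 at stage 14, and 0.205 at stage 15, where 2 libraries a group leave 1 value), so they were not taken as pairs. Libraries of different number reached up to 0.225 at stage 13 and 0.375 at stage 14. With the replicate block the weighted length call of comp119876_c0 was also lost (adjusted p = 0.0884 by limma). Depth limits the genes low at stage 13: 19 of the 115 were not tested between limbs there.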
